A study of Homo sapiens with 12 samples.

Results

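The study lowered 2 enzymes in HEK293T cells, singly and together, and asked how the pair acts on the handling of misfolded proteins. Its 4 groups form a 2 by 2 design, so each gene has a value for how far the double knockdown lay from the sum of the 2 single knockdowns. All 12 arrays of the series, of 12 in all, enter that value, and the groups were taken from the sample labels alone. The groups, 3 arrays each, were cells given shRNAs against both genes (shUBE4B+shLSD1), against UBE4B (shUBE4B), against LSD1 (shLSD1), or a nontargeting shRNA (shCTRL). HEK293T is a line from human embryonic kidney that carries large T antigen of SV40, which binds p53. In every group the shRNA plasmids, which carry a red fluorescent marker, were delivered by transient transfection with a lipid reagent for 78 h according to the labels. The study's text places a misfolding SOD1 mutant in the same cells, which the labels do not name, and arrays within a group are termed biological replicates in the labels. Nothing states that they came from separate cultures, so p-values measure the spread between these arrays, which may be technical.

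UBE4B is a U-box ubiquitin ligase that extends ubiquitin chains on proteins bound for the proteasome, and p53 is among its known substrates. LSD1, encoded by KDM1A, removes methyl groups from histones as part of CoREST and NuRD complexes, which silence genes, and it also demethylates p53. If 2 knockdowns act on a gene independently, their fold changes multiply, which on the log2 scale of these arrays is a sum. The interaction used here was the LSD1 knockdown effect in cells with UBE4B knockdown (shUBE4B+shLSD1 minus shUBE4B) minus the effect of LSD1 knockdown alone (shLSD1 minus shCTRL). A positive value places the double knockdown above the sum, a negative value below it, and 0 on it, all on the log2 scale.

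The shRNA plasmids bought for both genes are listed by the study with 29-base target sequences, 4 for each gene, and it is not given which of them were used on the arrays. These 4 are shown because they hold the longest runs of bases that any pair of the targets had in common, within a gene and between the genes that were knocked down together. They are written 5′ to 3′ with the shared run in capitals. UBE4B and KDM1A both lie on chromosome 1.
shUBE4B #69: caTTTCACCATTgaaacctgcaaagagac
shUBE4B #71: taacgccTTTCACCATTaagaggaaagcg
shUBE4B #70: agagtcttggtctcaaTGTCCACaacatg
shLSD1 #46: gatactgtgctTGTCCACcgagttcacag

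The longest run shared within a gene was 10 bases, between 2 of the UBE4B targets, and the longest between a UBE4B and an LSD1 target was 7 bases. No pair involving the nontargeting sequence shared more than 5 bases.

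Each knockdown was measured first, since a loss of knockdown when shRNAs are mixed would enter every other gene. UBE4B had log2 signals of 8.75, 9.11 and 8.94 in shUBE4B+shLSD1 arrays, 8.89, 9.06 and 8.89 in shUBE4B arrays, 10.38, 10.44 and 10.45 in shLSD1 arrays and 10.39, 10.38 and 10.28 in shCTRL arrays. Both groups with UBE4B shRNA lay below both groups without it, and the double knockdown held 0.374 of the shCTRL signal. KDM1A had 9.58, 9.89 and 9.87 in shUBE4B+shLSD1 arrays, 10.94, 10.98 and 10.93 in shUBE4B arrays, 9.46, 9.84 and 9.61 in shLSD1 arrays and 10.91, 10.83 and 10.96 in shCTRL arrays, so that 0.46 of the shCTRL signal was left in the double knockdown. The interaction was -0.09 for UBE4B (SE 0.122, 95% interval -0.35 to 0.18, limma adjusted p = 0.785) and 0.09 for KDM1A (SE 0.139, 95% interval -0.21 to 0.39, adjusted p = 0.79). Neither departure from the sum was detectable, and the intervals leave room for departures of the size seen below for other genes.

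Across the 18417 genes tested, no gene passed an adjusted p of 0.05 for the interaction with limma (0%), the lowest adjusted p being 0.0903 for CGA. At an unadjusted p under 0.05 there were 2411 genes (13.1% of those tested), 1269 above the sum (6.89%) and 1142 below it (6.2%). Letting the prior variance follow the signal level (eBayes with trend and robust settings) called 5 genes (0.0271%), all of them below the sum, and an unmoderated t of the same contrast called 1. The median size of the interaction was 0.118, and 174 genes exceeded 0.5. The named genes below are therefore single-gene descriptions with unadjusted support unless an adjusted p is given.

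Below the sum, the gene farthest from it was CGA, which encodes the alpha subunit shared by the glycoprotein hormones. CGA measured 6.20, 5.96 and 6.32 in shUBE4B+shLSD1 arrays, 5.86, 5.64 and 5.75 in shUBE4B arrays, 8.06, 7.66 and 7.54 in shLSD1 arrays and 5.97, 5.55 and 5.98 in shCTRL arrays. Only LSD1 knockdown alone was high, without overlap with any other group. LSD1 knockdown raised CGA 3.78-fold over shCTRL (adjusted p = 7.3e-05) but gave 1.33-fold when UBE4B was also knocked down (adjusted p = 0.268), an interaction of -1.51 (SE 0.204, unadjusted p = 4.9e-06).

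EPHA4, a receptor tyrosine kinase for ephrins, had the same shape with less spread. Its signals were 9.11, 9.08 and 9.07 in shUBE4B+shLSD1 arrays, 9.09, 9.14 and 9.10 in shUBE4B arrays, 9.45, 9.42 and 9.46 in shLSD1 arrays and 8.96, 8.97 and 9.01 in shCTRL arrays. It rose 1.38-fold with LSD1 knockdown alone (adjusted p = 0.0019), and LSD1 knockdown on top of UBE4B knockdown gave 0.982-fold, for an interaction of -0.49 (SE 0.0736, unadjusted p = 1.51e-05). MYOF, a membrane repair protein of the ferlin family, also rose with LSD1 knockdown alone (log2 change 0.53, adjusted p = 0.033), while its change on top of UBE4B knockdown was -0.06 and its interaction -0.58 (unadjusted p = 0.00139).

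VPS13A, a lipid transfer protein at membrane contacts, was instead high in the UBE4B knockdown. It measured 9.01, 9.01 and 9.05 in shUBE4B+shLSD1 arrays, 9.36, 9.46 and 9.37 in shUBE4B arrays, 9.02, 9.23 and 9.12 in shLSD1 arrays and 8.91, 8.83 and 9.00 in shCTRL arrays. It rose 1.39-fold with UBE4B knockdown alone (adjusted p = 0.0013), whereas the double knockdown overlapped the shLSD1 range and lay 0.11 above shCTRL (adjusted p = 0.42). The interaction was -0.58 (SE 0.0963, unadjusted p = 4.2e-05).

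SLIT2, a secreted guidance ligand, and AMBN, which encodes the enamel protein ameloblastin, were higher in both single knockdowns. SLIT2 measured 10.73, 10.80 and 10.79 in shUBE4B+shLSD1 arrays, 10.88, 10.96 and 10.91 in shUBE4B arrays, 10.72, 10.78 and 10.77 in shLSD1 arrays and 10.44, 10.54 and 10.51 in shCTRL arrays. All 3 knockdown groups lay above shCTRL, but the double knockdown shared the range of shLSD1 and stayed under shUBE4B, with an interaction of -0.41 (SE 0.0797, unadjusted p = 0.000196). AMBN rose with UBE4B knockdown (0.34, adjusted p = 0.023) and with LSD1 knockdown (0.61, adjusted p = 0.0075), was 0.20 above shCTRL in the double knockdown (adjusted p = 0.197) and had an interaction of -0.76 (unadjusted p = 2.58e-05). These 5 genes, CGA, EPHA4, VPS13A, SLIT2 and AMBN, were the ones called with trend and robust settings, at adjusted p between 0.0185 and 0.045.

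UNC5C, a netrin receptor, showed a change that was present in each single knockdown and not enlarged by combining them. It measured 8.36, 8.40 and 8.20 in shUBE4B+shLSD1 arrays, 8.28, 8.25 and 8.25 in shUBE4B arrays, 7.90, 8.01 and 7.90 in shLSD1 arrays and 7.32, 7.46 and 7.22 in shCTRL arrays. The double knockdown overlapped shUBE4B and exceeded both other groups. UNC5C rose 1.98-fold in the double knockdown, 1.90-fold with UBE4B knockdown and 1.52-fold with LSD1 knockdown (adjusted p = 1.8e-05, 4.7e-05 and 0.0044), where the sum would be a log2 change of 1.53 and 0.99 was measured.

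KITLG, the ligand of the KIT receptor, and CCDC112, a coiled-coil protein, were also higher in all 3 knockdown groups than in shCTRL, with the mean of the double knockdown the lowest of the 3. KITLG had 7.13, 6.90 and 7.09 in shUBE4B+shLSD1 arrays, 7.23, 7.25 and 7.20 in shUBE4B arrays, 7.02, 7.32 and 7.10 in shLSD1 arrays and 6.78, 6.31 and 6.81 in shCTRL arrays. Its interaction was -0.70 (SE 0.17, unadjusted p = 0.00118), and the shCTRL arrays differed among themselves by about as much as the groups did. The 12 lowest interactions among genes with a mean log2 signal of at least 6 ran from -1.51 to -0.68, and in 11 of the 12 both single knockdowns were higher than shCTRL. The others were LINC00652, SNORD1A, SLITRK3, SNORD77, TAS2R20, ANKRD18DP, SEMA3E and FAM86B2-DT. In 11 of the 12 the unadjusted p stayed under 0.05 whichever array was left out, the exception being SNORD77 (up to 0.0797).

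**Figure D1:**
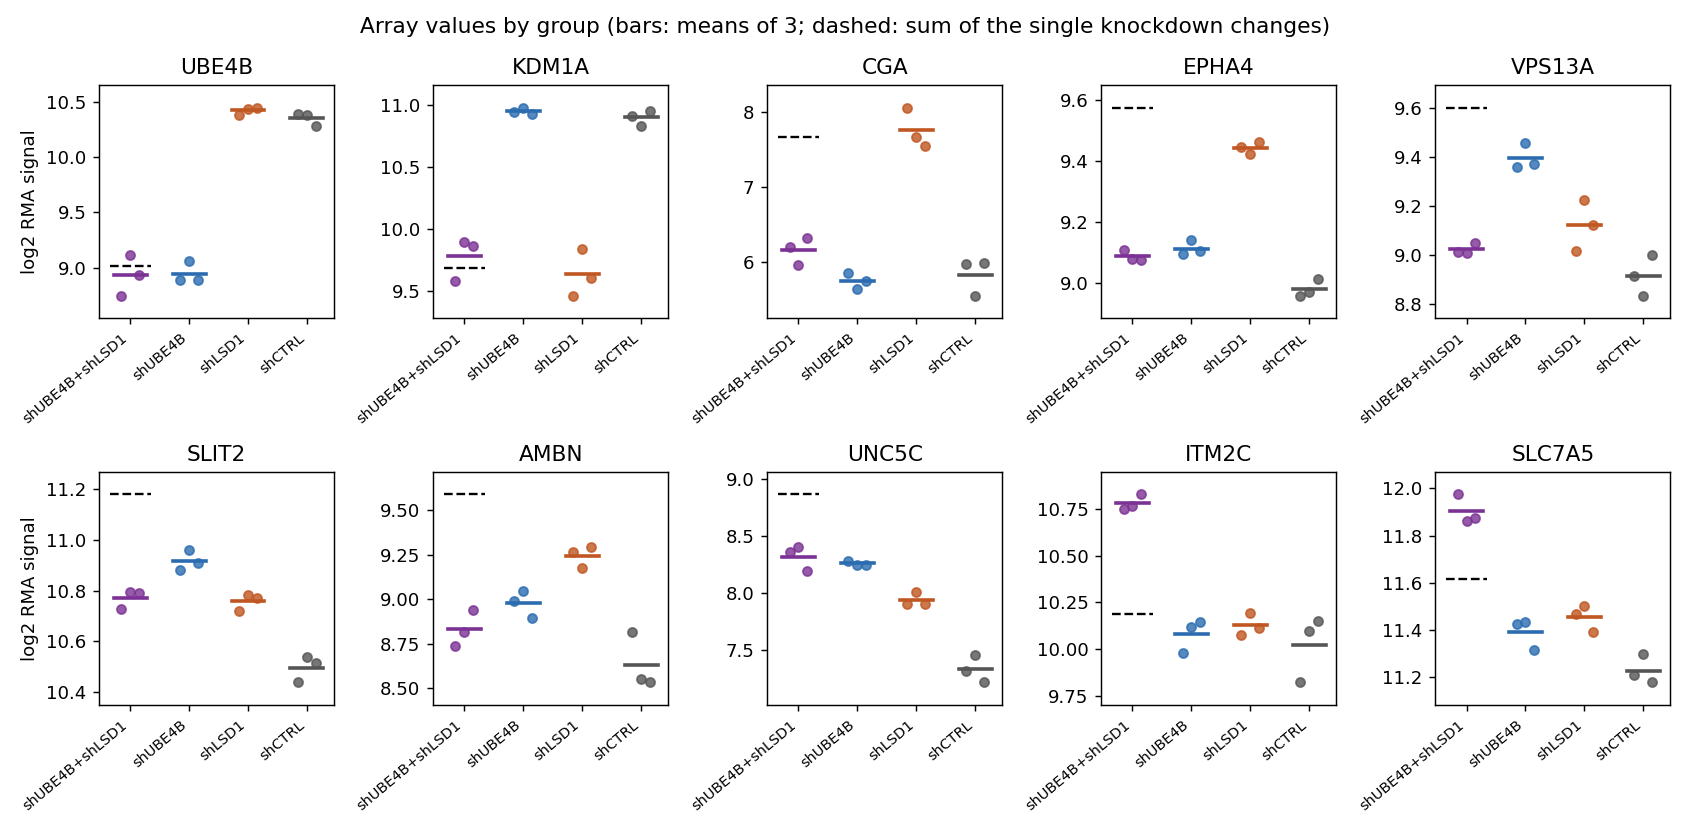
Log2 RMA signal (vertical axes, each with its own range) of 10 genes in the 12 arrays, with shUBE4B+shLSD1, shUBE4B, shLSD1 and shCTRL from left to right. Points are arrays, bars are means of 3 arrays, and the dashed line is the level that the sum of both single knockdown changes would give the double knockdown: it lay close to the measured mean for UBE4B and KDM1A, far above it for CGA (interaction -1.51) and below it for ITM2C (0.59).

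Above the sum, ITM2C stood apart because the double knockdown itself was high. ITM2C encodes a membrane protein of the BRICHOS family. It measured 10.75, 10.76 and 10.83 in shUBE4B+shLSD1 arrays, 9.98, 10.12 and 10.14 in shUBE4B arrays, 10.08, 10.20 and 10.11 in shLSD1 arrays and 9.82, 10.09 and 10.15 in shCTRL arrays. Only the double knockdown left the shared range. LSD1 knockdown gave 1.63-fold on top of UBE4B knockdown (adjusted p = 0.0034) and 1.08-fold alone (adjusted p = 0.65), for an interaction of 0.59 (SE 0.118, unadjusted p = 0.00022), and leaving out any 1 array kept the unadjusted p at 0.000855 or lower.

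ATP23, a mitochondrial metalloprotease and assembly factor of ATP synthase, and SLC7A5, the light chain of the LAT1 transporter of large neutral amino acids, were also highest in the double knockdown. ATP23 measured 9.07, 9.09 and 9.13 in shUBE4B+shLSD1 arrays, 8.49, 8.48 and 8.44 in shUBE4B arrays, 8.27, 8.40 and 8.11 in shLSD1 arrays and 8.19, 7.96 and 8.23 in shCTRL arrays, with an interaction of 0.49 (SE 0.118, unadjusted p = 0.00102). SLC7A5 measured 11.97, 11.86 and 11.88 in shUBE4B+shLSD1 arrays, 11.43, 11.43 and 11.31 in shUBE4B arrays, 11.47, 11.50 and 11.39 in shLSD1 arrays and 11.21, 11.30 and 11.18 in shCTRL arrays. Both genes were highest in the double knockdown without overlap, and SLC7A5 was 1.60-fold over shCTRL (adjusted p = 5.3e-05) with an interaction of 0.29 (SE 0.0897, unadjusted p = 0.00665). ARL2BP, which binds the small GTPase ARL2, was 0.73 over shCTRL in the double knockdown against a sum of 0.37, an interaction of 0.36 (unadjusted p = 0.00202).

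Genes that fell in the double knockdown beyond the sum included ZNF780B, a zinc finger protein, and TGOLN2, a marker of the trans-Golgi network, both named after their values were seen. ZNF780B measured 6.49, 6.42 and 6.66 in shUBE4B+shLSD1 arrays, 7.39, 7.48 and 7.21 in shUBE4B arrays, 6.98, 7.01 and 6.88 in shLSD1 arrays and 7.34, 6.97 and 7.20 in shCTRL arrays. Its double knockdown was lowest without overlap, 0.65 under shCTRL (adjusted p = 0.0018), where the sum was -0.02. TGOLN2 was 0.37 higher than shCTRL with LSD1 knockdown and 0.25 lower with UBE4B knockdown, and in the double knockdown it was 0.40 lower (adjusted p = 0.0101), for an interaction of -0.51 (unadjusted p = 0.000673).

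The other 11 of the 12 highest interactions, all but ITM2C, had a different shape, in which both single knockdowns lay below shCTRL and the double knockdown was nearer to it than either. They were ZNF623, EXOC3L2, MZB1, ESPNP, CD7, FP248, CALML6, AQP5, IL17C, NLRP6 and FGF17, with interactions up to 0.79. CD7, a surface protein of lymphocytes, can stand for them with 8.27, 8.32 and 8.14 in shUBE4B+shLSD1 arrays, 7.99, 7.83 and 7.88 in shUBE4B arrays, 8.06, 8.11 and 8.14 in shLSD1 arrays and 8.35, 8.58 and 8.17 in shCTRL arrays. The double knockdown overlapped shCTRL, and the interaction was 0.61 (SE 0.131, unadjusted p = 0.000466). Across the 12 the unadjusted p passed 0.05 on leaving out an array only for ESPNP (up to 0.0626).

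This shape was the common one. Of the 1269 genes above the sum at unadjusted p under 0.05, 1206 (95%) were lower than shCTRL in both single knockdowns, with median changes of -0.04 in the double knockdown, -0.21 with UBE4B knockdown and -0.15 with LSD1 knockdown. Of the 1142 genes below the sum, 1032 (90.4%) were higher in both, with medians of 0.10 in the double knockdown, 0.25 with UBE4B knockdown and 0.19 with LSD1 knockdown. Over all genes both singles were lower in 39.2% and higher in 29.8%. The interaction and the single knockdown changes share the shCTRL and single knockdown arrays, and with equal variance in all arrays the design alone gives them a correlation of -0.71, so these counts describe a shape and support nothing further. The shCTRL arrays were also the most variable, with a median SD over genes of 0.088 in shUBE4B+shLSD1, 0.072 in shUBE4B, 0.075 in shLSD1 and 0.114 in shCTRL.

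A direction can be read with less of this sharing by starting from the genes that changed in the double knockdown, because the design gives that change and the interaction no correlation where array variances are equal. There were 1393 such genes at an adjusted p under 0.05 (7.56% of those tested), and 990 of them (71.1%) changed by less than the sum, against 57.8% of all genes. Of 688 genes higher in the double knockdown, 554 (80.5%) were less than additive, with a median change of 0.35 against a median sum of 0.49. Of 705 lower genes, 436 (61.8%) were less than additive, with a median of -0.36 against a sum of -0.41. Among called genes with an unadjusted interaction p under 0.05, 296 were less than additive and 43 more. The zero correlation does not hold exactly, since the mean variance was 0.0228 in shCTRL and 0.0149 in shUBE4B+shLSD1. That inequality makes the correlation negative, which by itself moves genes towards less than additive. The share ran from 64.9% without shUBE4B+shLSD1 replicate 3 to 77.4% without shCTRL replicate 3. In those settings 52.7% and 64.7% of all genes were less than additive.

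**Figure D2:**
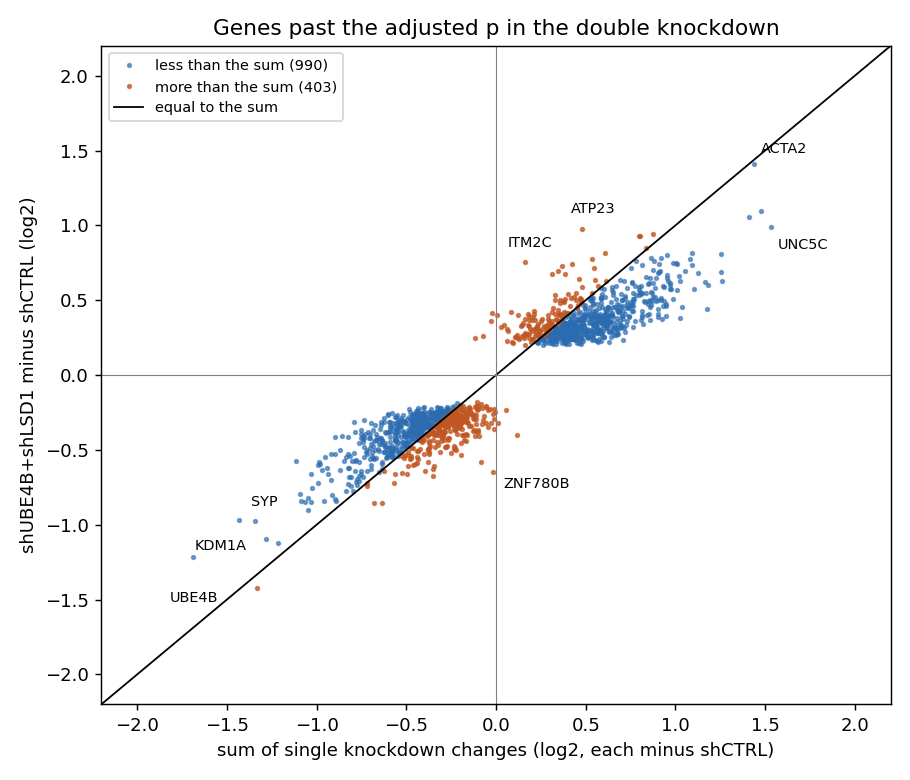
Change in the double knockdown (shUBE4B+shLSD1 minus shCTRL, vertical axis, log2) against the sum of both single knockdown changes (horizontal axis, log2) for the 1393 genes past the adjusted p in the double knockdown, 1 point a gene. The 990 blue genes lie nearer to 0 than the line of equality and the 403 orange genes farther from it, with ITM2C, ATP23 and ZNF780B among those far outside.

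Some genes with wide changes had no detectable departure from the sum, with intervals that still hold departures of the size given for other genes. ACTA2, smooth muscle actin and one of the p53 targets named by the study, measured 8.90, 9.07 and 9.27 in shUBE4B+shLSD1 arrays, 8.98, 8.83 and 9.15 in shUBE4B arrays, 7.80, 7.75 and 7.80 in shLSD1 arrays and 7.56, 7.55 and 7.89 in shCTRL arrays. It was 2.66-fold over shCTRL in the double knockdown (adjusted p = 2.4e-05), and its interaction of -0.03 had an interval of -0.37 to 0.32. CERS2, a ceramide synthase, was 0.93 above shCTRL in the double knockdown against a sum of 0.80 (interaction 0.13, interval -0.04 to 0.30), and CLDN12, a claudin of tight junctions, was -1.10 against -1.28 (interaction 0.19, interval -0.04 to 0.41).

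The p53 genes were examined as a list because both enzymes act on p53. Of 61 measured p53-activated genes, 1 (1.64%) was above the sum at unadjusted p under 0.05, against 6.89% of all genes. Below it were 4 (6.56%), near the 6.2% of all genes, and the median interaction was -0.02 against 0.01 for all genes. The 4 were KITLG, ASCC3 (an RNA helicase subunit), SESN1 (sestrin 1, a restraint on mTORC1) and ABHD4 (a lipase). SESN1 measured 8.85, 8.77 and 8.75 in shUBE4B+shLSD1 arrays, 8.85, 8.82 and 8.70 in shUBE4B arrays, 8.78, 8.63 and 8.79 in shLSD1 arrays and 8.46, 8.41 and 8.51 in shCTRL arrays. All 3 knockdown groups were above shCTRL and overlapped one another, and the interaction was -0.28 (SE 0.094, unadjusted p = 0.0103). FAS, the death receptor, had -0.35 (unadjusted p = 0.0501), while STAG1, TP53I3 and PMAIP1 had -0.04, -0.03 and 0.11. The count below the sum was 8 without shCTRL replicate 1 or without shCTRL replicate 3. In those settings 1362 and 1638 of all 18417 genes were below, against 1142 as deposited. The list median was 0.01 without shCTRL replicate 2. Of the 14 p53 targets and quality control genes that the study followed, 2 (14.3%) were below, SESN1 and FOXO4, and none above. Their median was -0.14, and -0.06 without shCTRL replicate 2. The study chose these genes on these arrays, so the list is not independent evidence of its direction.

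Genes that regulate p53 leaned below the sum. Of 26 measured, 8 (30.8%, against 6.2% of all genes) were below and none above at unadjusted p under 0.05, and the list median was -0.19. They were MDM4, an inhibitor of p53, COP1, a ubiquitin ligase for it, the kinases ATM, ATR and HIPK2, the acetyltransferase EP300, the methyltransferase SMYD2 and the methyl-lysine reader L3MBTL1. EP300 measured 10.10, 10.16 and 10.08 in shUBE4B+shLSD1 arrays, 10.15, 10.17 and 10.22 in shUBE4B arrays, 10.10, 10.10 and 10.14 in shLSD1 arrays and 9.91, 9.86 and 9.87 in shCTRL arrays. Every knockdown array exceeded every shCTRL array, and the double knockdown, 0.23 over shCTRL (adjusted p = 0.019), was no higher than the singles (interaction -0.30, SE 0.0763, unadjusted p = 0.00158). HIPK2 differed in rising only with LSD1 knockdown alone among the 3 comparisons with shCTRL (0.46, adjusted p = 0.013), with 0.17 in the double knockdown (adjusted p = 0.18). On leaving out single arrays, the count below the sum lay between 4 (without shLSD1 replicate 2 or without shCTRL replicate 2) and 12 (without shCTRL replicate 3). Without shCTRL replicate 2, 5.27% of all genes were above and 5.11% below. Without shCTRL replicate 3, 1638 of all 18417 genes were below, against 1142 as deposited. The list count was 5 after cyclic loess normalization between arrays, and none of these settings put a member above the sum. The length of a gene also moved with the interaction, as described below, and its part in this list was not tested.

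Targets of ATF4, the factor that raises amino acid supply under stress, leaned above the sum. Of 38 measured, 5 (13.2%, against 6.89% of all genes) were above and none below at unadjusted p under 0.05, and the median was 0.12. The 5 were CHAC1, which degrades glutathione, PSAT1 of serine synthesis, MTHFD2 of mitochondrial folate metabolism, the glycine transporter SLC6A9 and SLC7A5. PSAT1 measured 10.39, 10.46 and 10.46 in shUBE4B+shLSD1 arrays, 10.35, 10.43 and 10.33 in shUBE4B arrays, 10.76, 10.80 and 10.82 in shLSD1 arrays and 10.97, 10.96 and 11.09 in shCTRL arrays. Both groups with UBE4B shRNA overlapped and lay below the others. PSAT1 fell by 0.57 in the double knockdown and by 0.63 with UBE4B knockdown (adjusted p = 0.00011 for each), was 0.21 lower with LSD1 knockdown (adjusted p = 0.12) and had an interaction of 0.27 (unadjusted p = 0.00632). CHAC1 measured 8.37, 8.24 and 8.35 in shUBE4B+shLSD1 arrays, 8.05, 8.00 and 8.08 in shUBE4B arrays, 8.23, 8.22 and 8.42 in shLSD1 arrays and 8.30, 8.41 and 8.45 in shCTRL arrays. It was low in shUBE4B alone, by 0.34 (adjusted p = 0.01), and its interaction was 0.37 (SE 0.101, unadjusted p = 0.00258).

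When arrays were brought to a common trend with brightness by cyclic loess, 12 of 38 members were above the sum and none below, with a median of 0.16, where 5.28% of all genes were above and 6.49% below. Leaving out single arrays gave 3 (without shUBE4B+shLSD1 replicate 3, shUBE4B replicate 1 or shLSD1 replicate 2) to 9 (without shUBE4B+shLSD1 replicate 1) above. SLC7A5, known from an earlier look at these data as a strong responder, was high in the double knockdown and not low in either single one. CHAC1, PSAT1 and SLC6A9 were instead lower with UBE4B knockdown, by 0.34, 0.63 and 0.32 (adjusted p = 0.01, 0.00011 and 0.037). With LSD1 knockdown alone their changes were -0.10, -0.21 and -0.08 (adjusted p = 0.61, 0.12 and 0.77).

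Immediate early genes, which respond to growth signals within minutes through SRF and CREB, had the highest median of the lists drawn up from pathways, 0.16 over 32 measured genes. At unadjusted p under 0.05, 7 (21.9%, against 6.89% of all genes) were above the sum and none below. They were FOS and FOSB, which are subunits of AP-1, ARC, EGR4, IER2, IER5 and the phosphatase DUSP1. FOS measured 7.08, 7.15 and 7.42 in shUBE4B+shLSD1 arrays, 7.00, 6.93 and 7.15 in shUBE4B arrays, 7.13, 7.17 and 7.18 in shLSD1 arrays and 7.29, 7.34 and 7.34 in shCTRL arrays. The UBE4B knockdown was lowest, 0.30 under shCTRL (adjusted p = 0.041), and the double knockdown spread across the range of the others, with an interaction of 0.35 (SE 0.119, unadjusted p = 0.0108). DUSP1 fell by 0.30 in the double knockdown (adjusted p = 0.0076) and by 0.27 with UBE4B knockdown (adjusted p = 0.015), was 0.25 lower with LSD1 knockdown (adjusted p = 0.078) and had an interaction of 0.21 (unadjusted p = 0.0268). After cyclic loess 10 members were above, and single arrays left out gave 2 (without shUBE4B replicate 2) to 9.

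REST is a repressor of neuronal genes that recruits CoREST and with it LSD1. Genes held off by REST were above the sum in 7 (17.5%) of 40 and below in none, with a median of 0.10. The shares of all genes were 6.89% and 6.2%. This list was dim, with a median log2 signal of 6.45 against 7.70 over all genes. In the classes of all genes around signals of 6.12 and 6.74, 12.6% and 10.3% were above the sum. Their median interactions were 0.09 and 0.07 as deposited, and 0.0048 and 0.0035 after cyclic loess. The part of signal level in the list's lean was not tested. SYP, a synaptic vesicle protein, measured 7.38, 7.41 and 7.45 in shUBE4B+shLSD1 arrays, 7.38, 7.31 and 7.13 in shUBE4B arrays, 8.28, 7.97 and 8.21 in shLSD1 arrays and 8.38, 8.42 and 8.36 in shCTRL arrays. The UBE4B shRNA groups were low with or without LSD1 shRNA. SYP fell by 0.97 in the double knockdown and by 1.11 with UBE4B knockdown (adjusted p = 2.9e-05 and 3.5e-05), and its interaction was 0.37 (unadjusted p = 0.00811). STMN3, a stathmin of neurons, and SCG3, a granin of secretory granules, gave the same order with interactions of 0.37 and 0.47. L1CAM, an adhesion molecule, differed in that neither single knockdown passed the test (adjusted p = 0.25 and 0.12), at an interaction of 0.43. CPLX1, BDNF and GRIA2 were the other 3 genes. After cyclic loess 4 were above and 1 below, with a list median of 0.08.

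**Figure D3:**
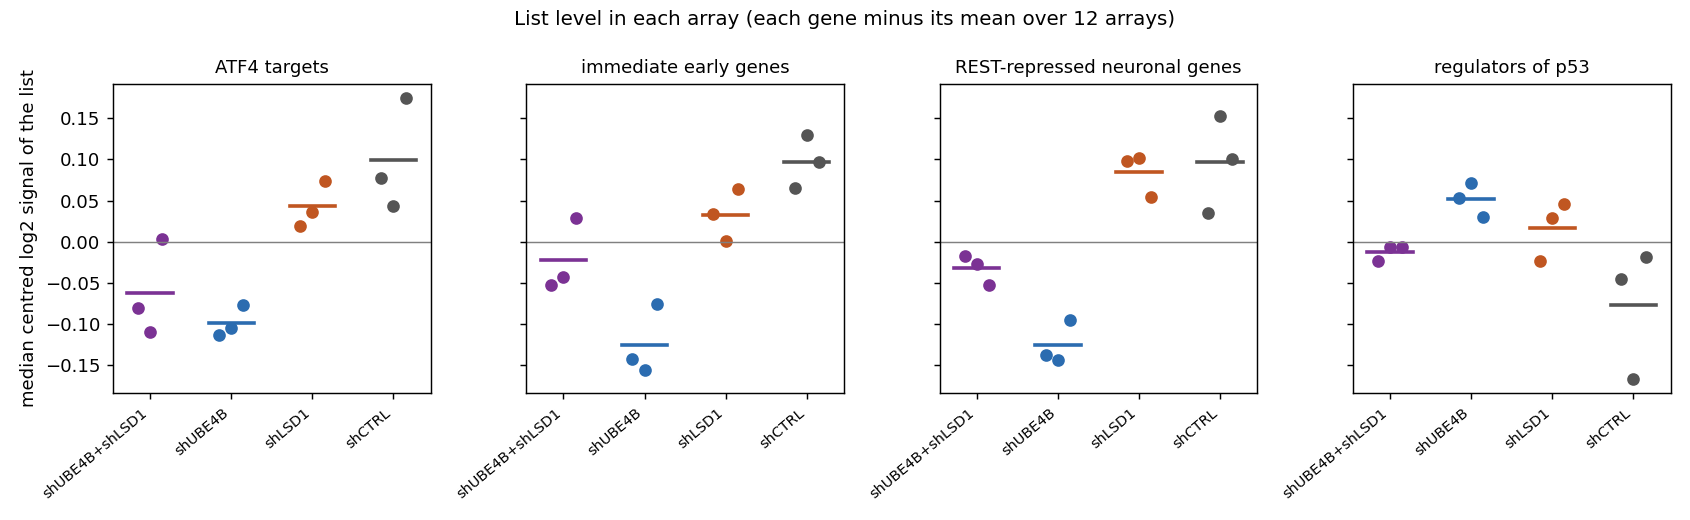
Median over the genes of 4 lists, each gene first centred on its mean over the 12 arrays, in each array (vertical axis, log2; points are arrays, bars are means of 3). The ATF4, immediate early and REST lists were on average lowest in shUBE4B and higher in shLSD1 and shCTRL, and the regulators of p53 were lowest in shCTRL, where replicate 2 lay at -0.17 and the others at -0.05 and -0.02.

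Promoter letters were read for the 2 stress and growth signal lists from RefSeq sequences of build GRCh38.p14, 250 bases before to 50 after each start. The composite site that ATF4 binds with CEBP factors, TGATGCAA on either strand, was in 4 of 32 ATF4 promoters (12.5%) and in 0.923% of 27305 promoters of the same length. The CRE of CREB and ATF factors, TGACGTCA, reads the same on both strands and was in 2 of 20 immediate early promoters (10%) and in 1.98% of all. A pair from each list is shown in 30 bases around the match, which is in capitals.
CHAC1, chr15:40953251-40953280, plus strand: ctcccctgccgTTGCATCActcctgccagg
AARS1, chr16:70289675-70289704, minus strand: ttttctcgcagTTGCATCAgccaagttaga
JUND, chr19:18281804-18281833, minus strand: ggccgcccccaTGACGTCAacccacaaggc
DUSP1, chr5:172771302-172771331, minus strand: ggcagggcgggTGACGTCAccgccccgtca

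CHAC1 and DUSP1 were past the unadjusted p, while AARS1, the alanyl-tRNA synthetase, and JUND, an AP-1 subunit, had interactions of 0.08 and 0.16 that were not. Members with and without the letters had median interactions of 0.10 and 0.11 in the ATF4 list and of 0.18 and 0.17 in the immediate early list.

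The genes that remove misfolded proteins were examined as 4 lists. None of 29 measured subunits of the 20S and 19S proteasome was past the unadjusted p in either direction, and their median was 0.01 (2 were above after cyclic loess). PSMD11, a lid subunit that the study followed, was 0.33 over shCTRL in the double knockdown (adjusted p = 0.0034) against a sum of 0.31, with an interval of -0.15 to 0.20 for the interaction. Of 39 autophagy genes, with a median of -0.07, 3 (7.69%) were above (among them ATG101, of the ULK1 complex, and TFEB, which switches on lysosomal genes) and 2 (5.13%) below (ATG2B, a lipid transfer protein of the growing autophagosome, and UVRAG). Both autophagy shares were near the 6.89% above and 6.2% below of all genes. Of 40 lysosomal genes, 1 (CTSZ, a cathepsin) was above and 5 (12.5%, against 6.2% of all genes) below. Among the 5 were MANBA, LIPA and the proton pump subunit ATP6V1B2, with interactions of -0.41, -0.35 and -0.27. The lysosomal median was -0.06, and -0.01 without shCTRL replicate 2, and the count below was 3 without shUBE4B replicate 2. After cyclic loess 4 lysosomal genes were above and 4 below, with a median of -0.013.

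In the endoplasmic reticulum list of 32 genes, 3 (9.38%) were below and none above, against 6.2% of all genes below. They were OS9, a lectin, SEL1L, an adaptor of the ubiquitin ligase HRD1, and EDEM3, a mannosidase, and 2 were below without shCTRL replicate 2. OS9 measured 9.62, 9.59 and 9.67 in shUBE4B+shLSD1 arrays, 9.72, 9.70 and 9.73 in shUBE4B arrays, 10.10, 10.02 and 10.06 in shLSD1 arrays and 9.90, 9.82 and 9.87 in shCTRL arrays. It was lowest in the double knockdown and highest in shLSD1, without overlap between the groups, and its change of -0.23 in the double knockdown (adjusted p = 0.021) lay beyond the sum of 0.05. FOXO4, a forkhead factor the study followed with FOXO3, was 0.38 over shCTRL in the double knockdown (adjusted p = 0.00145) against a sum of 0.61 (interaction -0.23, unadjusted p = 0.0135), while FOXO3 had 0.19 (unadjusted p = 0.145). Genes of cholesterol synthesis (19) and of hypoxia and glycolysis (33) had no member past the unadjusted p.

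DNA replication genes had 4 of 44 (9.09%) below, against 6.2% of all genes, and none above: POLA1 and POLD3, which are polymerase subunits, and GINS3 and GINS4 of the replicative helicase. POLD3 was 0.30 over shCTRL in the double knockdown, 0.26 with UBE4B knockdown and 0.34 with LSD1 knockdown (adjusted p = 0.012, 0.022 and 0.032), so that each knockdown alone gave about the change of both. The list median of -0.08 was -0.03 without shCTRL replicate 2, and 7 genes were below without shCTRL replicate 1 or without shCTRL replicate 3. Without shCTRL replicate 1 and without shCTRL replicate 3, 1362 and 1638 of all 18417 genes were below, against 1142 as deposited. Among 24 targets of the Hippo pathway, 2 (8.33%) were above the sum and 1 (4.17%) below, against 6.89% and 6.2% of all genes. LATS2, a kinase of that pathway, was above (0.40, unadjusted p = 0.000282) and MYOF below. Of 41 interferon genes, 3 (7.32%) were above and 1 (2.44%) below. OAS2 (0.46, unadjusted p = 0.000388), IFIT2 and MX1 were above, and RIGI, the RNA sensor, was below (-0.42, unadjusted p = 0.0211). OAS2, IFIT2 and MX1 were dim, with mean log2 signals of 5.38, 5.40 and 5.54. In the class of all genes around a signal of 5.45, 11.0% were above the sum. After cyclic loess the unadjusted p of the same limma contrast was 0.000662 for OAS2, 0.152 for IFIT2 and 0.0874 for MX1.

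Parts of the cilium leaned below the sum. Of 32 genes of intraflagellar transport and the BBSome, 7 (21.9%, against 6.2% of all genes) were below and none above, with a median of -0.13. They were IFT70A, IFT70B, IFT172, IFT56 and WDR35, which are components of the transport trains, the motor chain DYNC2H1, and BBS9. Members of symbol families are named here after their values were seen. IFT70B had an interaction of -0.64 and IFT70A of -0.35, and as near-identical copies they may share probes. Without shCTRL replicate 2 the median was -0.04, and the count below lay between 4 (without shUBE4B+shLSD1 replicate 1) and 12 (without shCTRL replicate 3). In these last settings 894 and 1638 of all 18417 genes were below, against 1142 as deposited. Of 37 centrosomal CEP genes, 6 (16.2%, against 6.2% of all genes) were below and 2 (5.41%, against 6.89%) above. CEP162, CEP44 and CEP290 were among the 6 below, with interactions of -0.54, -0.40 and -0.37. The count below was 3 to 11 on leaving out single arrays, with 11 without shCTRL replicate 3.

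**Figure D4:**
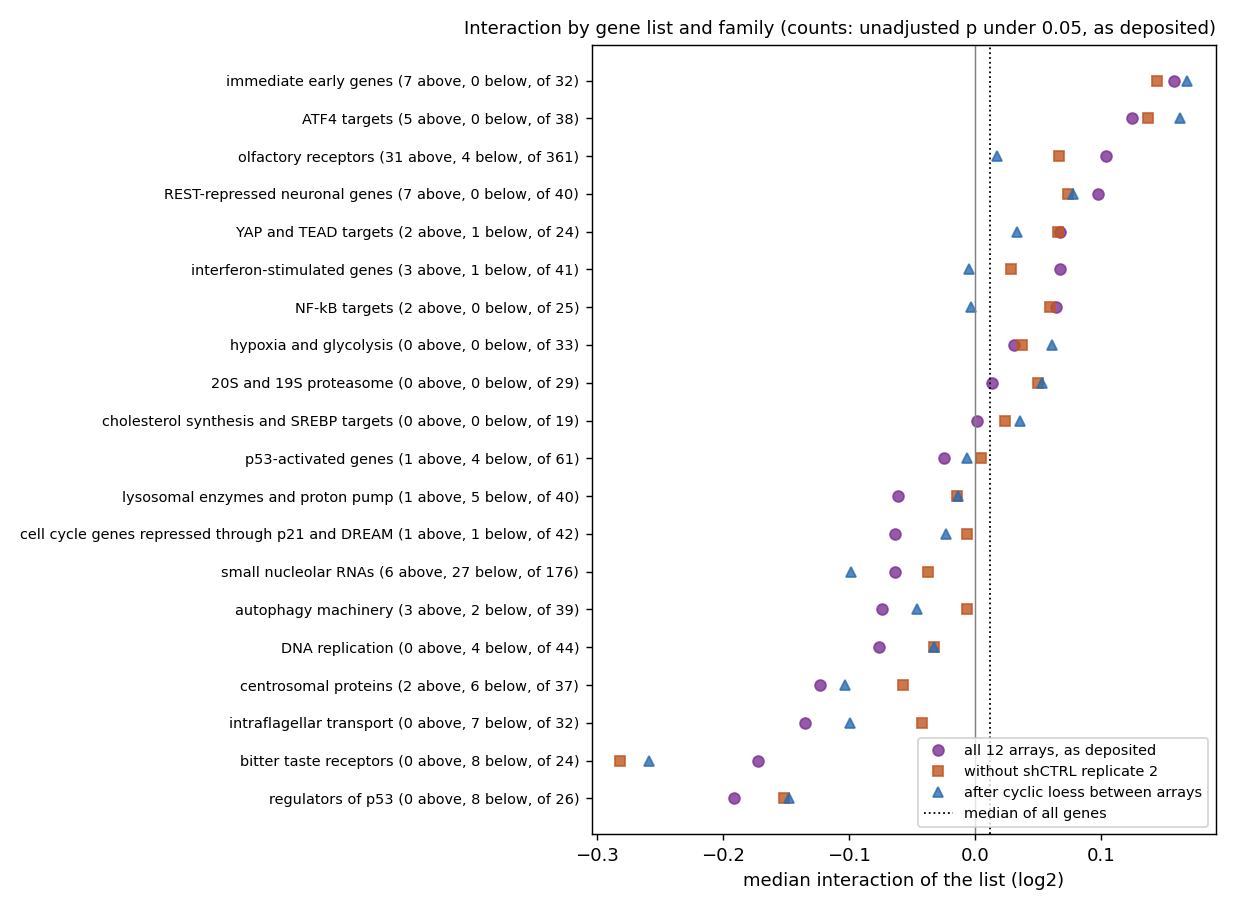
Median interaction (horizontal axis, log2) of 20 gene lists and families, with all 12 arrays as deposited (circles), without shCTRL replicate 2 (squares) and after cyclic loess between arrays (triangles), and in brackets the members above and below the sum at unadjusted p under 0.05. Immediate early genes (0.16) and ATF4 targets (0.12) stay to the right in all 3 settings, and bitter taste receptors (-0.17) and regulators of p53 (-0.19) to the left, while the olfactory receptors move from 0.10 to 0.02 after cyclic loess.

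Small nucleolar RNAs, which guide chemical modification of ribosomal RNA and are cut from introns of host genes, had 27 of 176 (15.3%) below the sum and 6 (3.41%) above. Over all genes 6.2% were below and 6.89% above. By position in RefSeq, on either strand, all 27 lie inside another gene, and 5 of them (SNORD74, SNORD75, SNORD77, SNORD78 and SNORD79) lie inside GAS5, with interactions of -0.29, -0.43, -0.74, -0.27 and -0.43. SNORD1A and SNORD1B lie inside SNHG16, with -0.80 and -0.51. For 13 of the 27 the containing gene was measured too, which gave 12 hosts, 11 of them with an interaction below 0 and 1 above. The share of genes above 0 was 52.7% over all genes and 34.5% in the brightest of 10 equal classes by mean signal. Hosts were not compared with genes of their own signal level, so the count does not show that hosts moved with their snoRNAs. SRCAP, a chromatin remodeller that holds SNORA30 (-0.38), passed the same unadjusted threshold (-0.23, unadjusted p = 0.0285), and the other 11 hosts did not. PPP2R5A, a phosphatase subunit, had -0.27 where SNORA16B had -0.57, and at the other end EIF3A, an initiation factor, had -0.03 where SNORA19 had -0.38, and SNHG29 had 0.19 where SNORD49A had -0.45. Probes for a snoRNA also match the intron that holds it, and the part of intron signal in these values was not tested. The count below was 33 without shCTRL replicate 3, 13 without shLSD1 replicate 2, 16 without shUBE4B replicate 2, and 17 without shUBE4B replicate 1 or without shCTRL replicate 2. In those settings, in the same order, 1638, 786, 805, 933 and 941 of all 18417 genes were below.

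Bitter taste receptors, single-exon G protein-coupled receptors, had 8 of 24 (33.3%, against 6.2% of all genes) below and none above, with a median of -0.17. Without shCTRL replicate 2 the median was -0.28 and 11 were below, and single other arrays left out put at most 1 member above. TAS2R19, TAS2R20, TAS2R31, TAS2R46 and TAS2R50 lie inside the PRH1 locus on chromosome 12, and TAS2R3, TAS2R4 and TAS2R5 are the other 3. TAS2R20 measured 6.23, 6.48 and 6.07 in shUBE4B+shLSD1 arrays, 6.69, 6.42 and 6.49 in shUBE4B arrays, 6.31, 6.69 and 6.74 in shLSD1 arrays and 5.96, 6.07 and 6.30 in shCTRL arrays. The single knockdowns were the higher groups, with overlap, and the interaction was -0.74 (SE 0.187, unadjusted p = 0.00161). The family is dim, with a median log2 signal of 5.01, its members resemble each other in sequence, and the neighbours in PRH1 cannot be counted as separate observations. Zinc finger genes of the ZNF series had 45 of 494 (9.11%) below and 25 (5.06%) above, against 6.2% and 6.89% of all genes.

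Families above the sum were mostly dim, although single members of them were expressed, such as KRT18 at percentile 71.9 of signal. Olfactory receptors had 31 of 361 (8.59%) above and 4 (1.11%) below, against 6.89% and 6.2% of all genes. Their median log2 signal was 4.79, and in the dimmest of 10 equal classes of all genes 9.56% were above and 1.2% below. The olfactory count was thus near the share of genes of its signal level. After cyclic loess these receptors had 14 above and 16 below. Keratins had 8 of 53 (15.1%) above, interleukins and their receptors 11 of 84 (13.1%) and collagens 7 of 44 (15.9%), against 6.89% of all genes. Below were 0, 1 and 0. The median log2 signals of these families were 5.93, 5.70 and 6.78, against 7.70 over all genes. In the classes of all genes around signals of 5.45, 6.12 and 6.74, 11.0%, 12.6% and 10.3% were above the sum. After cyclic loess 3 keratins were above and 2 below, 4 interleukin genes above and 1 below, and 4 collagens above and 1 below. The keratin median was 0.02 after cyclic loess, against 0.11 as deposited, and the interleukin median was 0.02 against 0.10. The collagen median was 0.12 as deposited, 0.10 after cyclic loess and 0.05 without shCTRL replicate 2, with COL8A1 at 0.56 and COL6A3 at 0.42. The count of collagens above was 3 without shUBE4B replicate 1 or without shLSD1 replicate 1, 4 without shLSD1 replicate 2 or without shCTRL replicate 2, and 11 without shCTRL replicate 3. In those settings, in the same order, 998, 1123, 988, 971 and 1622 of all 18417 genes were above.

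The interaction moved with signal level across all genes. In 10 equal classes of genes by mean signal, the median interaction was 0.08, 0.10, 0.09, 0.07 and 0.04 in the 5 dimmest, and -0.01, -0.05, -0.05, -0.06 and -0.04 in the 5 brightest, and the share of positive values was 71.7% in the dimmest class and 34.5% in the brightest. The arrays themselves tilted with brightness. The median centred signal of the 4 dimmest classes minus that of the 4 brightest was 0.06, 0.00 and 0.01 in shUBE4B+shLSD1 arrays, -0.07, -0.08 and -0.02 in shUBE4B arrays, -0.02, -0.01 and 0.00 in shLSD1 arrays and -0.03, 0.16 and -0.03 in shCTRL arrays. Replicate 2 of shCTRL thus stood apart, and without it the medians were 0.05 in the dimmest class and -0.01 in the brightest. Cyclic loess, which removes such a tilt, gave -0.0036 in the dimmest class and 0.0032 in the brightest.

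Gene length showed a second gradient, over the 18392 genes with a RefSeq length. With genes in 10 equal classes by length, the median interaction was 0.08 in the shortest class (median length 1182 bases), 0.09 in the next, 0.02 in the fifth and -0.07 in the longest, and the share of genes below the sum at unadjusted p under 0.05 was 2.99% in the shortest class and 15.8% in the longest. In the longest class the median changes against shCTRL were 0.03 in the double knockdown, 0.04 with UBE4B knockdown and 0.04 with LSD1 knockdown, and in the shortest they were -0.02, -0.06 and -0.04. The gradient was present after cyclic loess, with 0.03 in the shortest and -0.08 in the longest class, and without shCTRL replicate 2, with 0.05 and -0.06. Within 4 equal classes of brightness the gradient was small in the dimmest, where the median was 0.10 for the shortest of 4 classes by length and 0.08 for the longest. From the next class to the brightest, the medians for the shortest and longest genes were 0.12 and -0.03, 0.05 and -0.11, and 0.01 and -0.11.

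**Figure D5:**
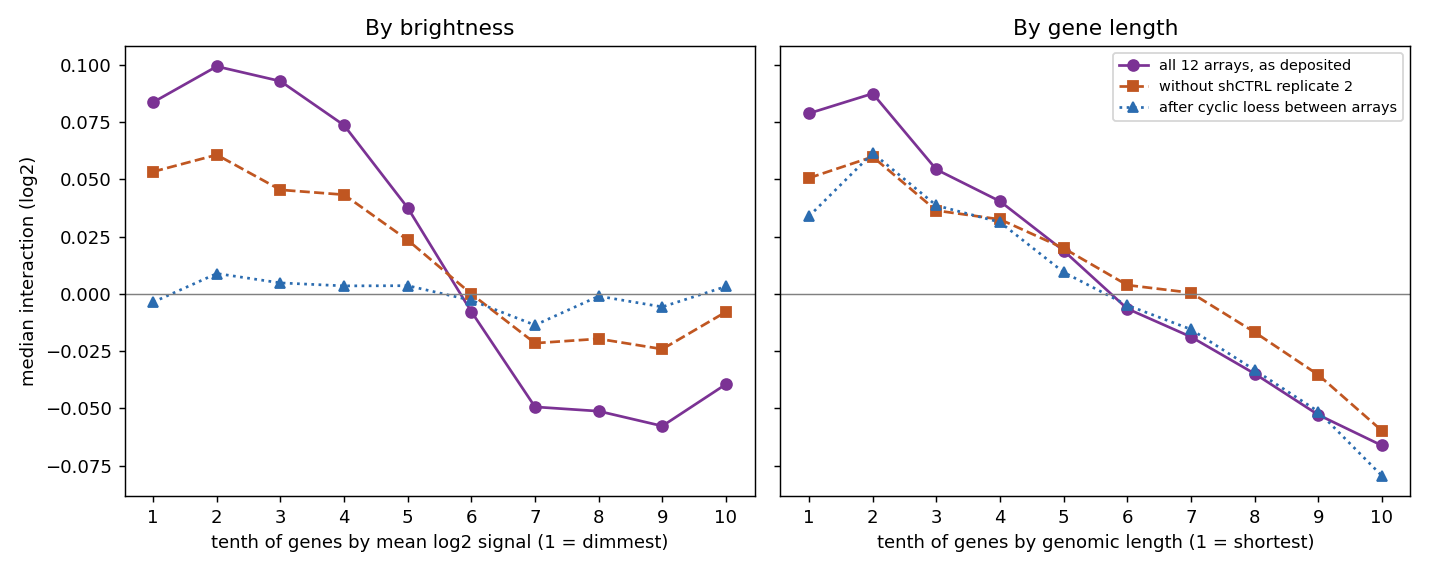
Median interaction (vertical axis, log2) in 10 equal classes of genes by mean signal (left) and by genomic length (right), with all 12 arrays as deposited (circles), without shCTRL replicate 2 (squares) and after cyclic loess (triangles). The brightness gradient, 0.08 to -0.04 as deposited, is flat after cyclic loess, while the length gradient, 0.08 to -0.07 as deposited, runs from 0.03 to -0.08 after it.

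The arrays had similar medians, 7.00 to 7.06, but not the same distribution, as the tilt with brightness shows. RMA scales arrays to one another, so an overall gain or loss of RNA is invisible here, and fewer cells of a kind cannot be told apart from less RNA per cell. Of 11 HEK293T markers 10 were measured, from PAX2 at percentile 40.7 of signal over genes to VIM at 97, and LIN28B among them had an interaction of -0.63. PTPRC of leukocytes and DCN, LUM and FAP of fibroblasts were at percentile 6.32 or lower. The other measured members of these lists were higher. Among leukocyte markers they ran from CD3E at 19.2 to CD68 at 49.6, and among fibroblast markers from COL1A2 at 31.3 to COL1A1 at 56.1. Of 7 colon epithelial markers CDX2 was at percentile 76.6 and CDH17 at 5.80, and the list averaged 6.61 to 6.79 in shUBE4B+shLSD1 arrays, 6.66 to 6.73 in shUBE4B arrays, 6.82 to 6.91 in shLSD1 arrays and 6.81 to 6.86 in shCTRL arrays. The colon list was lower in both groups with UBE4B shRNA, and its part in the results was not tested. Mean marker levels by array overlapped between groups for the HEK293T list, at 9.14 to 9.40 in shUBE4B+shLSD1, 9.19 to 9.33 in shUBE4B, 9.21 to 9.37 in shLSD1 and 9.18 to 9.37 in shCTRL.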

How the data were processed

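RNA of HEK293T cells was hybridised to Affymetrix Human Gene 1.0 ST arrays. As deposited by the authors, values are log2 signals summarised by RMA in Partek, with annotation on hg19 (versions not given in the sources used here). The labels name a whole-transcript labelling kit. Of 33297 transcript clusters, 19460 had exactly 1 gene symbol, 1754 several and 12083 none here. The brightest cluster per gene gave 18417 genes. The brightest cluster was chosen by its mean over all arrays.

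A model of 4 group means was fitted with limma 3.58.1 in R 4.3.3 (lmFit, eBayes without trend, 8 residual and 5.13 prior degrees of freedom, no replicate block), with Benjamini-Hochberg adjustment over all genes. Unadjusted p-values printed with a gene come from this fit. Named were the 12 highest and 12 lowest interactions past an unadjusted p of 0.05 with a mean signal of at least 6, genes called with trend and robust settings, the targets, up to 4 members per list, and genes that the study or an earlier look at these data had named. Members, lists and the naming rule were chosen with earlier results of these data known. Lists (30) and symbol families (42) were described by counts and medians, without a set test. The shares of all genes to set beside their counts were 6.89% above and 6.2% below as deposited. Alternatives were array weights, a replicate block, further quantile or median scaling, linear signal, averaging a gene's clusters, no dim genes, all clusters, an unmoderated t, each array left out and, chosen after seeing the data, cyclic loess. The fit was tested on simulated data. RefSeq tables (GRCh38.p14) served for names, neighbours, gene lengths and promoter sequences, and positions printed are of that build. Figures used Python 3.11.15, pandas 2.3.3 and matplotlib 3.10.9. The number of arrays limits the precision.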

Additional observations from a re-analysis of the deposited data

Results flagged for a closer look

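With eBayes set to follow the trend of variance with signal and to resist outlying genes, 5 genes had an LSD1 knockdown effect that differed between cells with and without UBE4B knockdown at an adjusted p under 0.05, all below the sum. CGA had an interaction of -1.51 (adjusted p = 0.0185 there and 0.0903 without trend). AMBN had -0.757 (0.0393 and 0.149), EPHA4 -0.489 (0.0393 and 0.139), VPS13A -0.579 (0.045 and 0.149) and SLIT2 -0.407 (0.045 and 0.177). In all 5, the unadjusted p stayed at 0.000866 or lower whichever array was left out.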

How the results depend on the processing

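No gene passed the adjusted p for the interaction, and on leaving out each array in turn the count was 0 each time. It was 5 with trend and robust settings, 1 with an unmoderated t (EPHA4), 1 without the 40% dimmest genes (EPHA4) and 1 with a replicate block (CGA). With the replicate block 1418 genes were above and 1377 below the sum at unadjusted p under 0.05, and 71.3% of called genes were less than additive. The replicate numbers were not taken as pairing the arrays, since same-numbered arrays correlated at -0.0801 to 0.328 (median 0.131) and 10 of 18 pairs exceeded 0.1, although 8 of 12 arrays correlated best with an array of their own number, a hint of pairing from the data and not from the design. Leaving out single arrays gave 952 to 1622 genes above and 786 to 1638 below. Of called genes 64.9% to 77.4% were then less than additive, against 52.7% to 64.7% of all genes. Without the 40% dimmest genes 548 were above, and over all 33297 clusters 2329 were below. The median interaction of the dimmest class of genes minus that of the brightest was 0.123 as deposited, 0.0612 to 0.153 without single arrays, 0.00686 after further quantile normalization and -0.00683 after cyclic loess. The snoRNA median was -0.127 without the 40% dimmest genes, where no bitter taste receptor was left to give a value. Signs turned for values near 0. The median of the p53-activated genes, -0.0246, was 0.00509 without shCTRL replicate 2. ACTA2 was 0.0214 with array weights, 0.0496 on linear signal and 8.57e-05 after cyclic loess, STAG1 was 0.0314 with array weights and 0.0367 on linear signal, and single arrays left out gave -0.139 to 0.0646 for ACTA2, -0.156 to 0.0459 for STAG1, -0.0703 to 0.0165 for TP53I3, -0.00602 to 0.0589 for PSMD11 and -0.176 to 0.00696 for UBE4B. Of 2391 single-gene values under the alternatives, 2138 kept their direction and side of the unadjusted threshold, 207 lost it, 30 gained it and 16 turned sign. The causes were not tested.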
